A study of Mus musculus with 6 samples.

Results

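The genes described here are 10 members of the NRF2 antioxidant response, taken by symbol from the 23284 genes counted in each liver library. They are the regulator genes Nfe2l2 and Keap1, the glutathione synthesis genes Gclc and Gclm, and the thioredoxin reductase and sulfiredoxin genes Txnrd1 and Srxn1. The others are the heme oxygenase gene Hmox1 and the detoxification genes Nqo1, Ephx1 and Mgst1. All 10 had a row in every file and all 10 passed the filter on low counts. The study compared 3 liver libraries from wild type mice with 3 from Trim24 -/- mice, all aged 8 weeks and of strain C57BL6/J. No treatment is named for either group. The targeted allele, the sex of the animals and any pooling are not given in the sources used here. Nor do they say that each replicate is a mouse of its own, so each p-value reflects only the variation among libraries, which may be technical. The libraries are called WT1 to WT3 and KO1 to KO3 after their replicate numbers.

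NRF2, the product of Nfe2l2, is a transcription factor that pairs with small MAF proteins on antioxidant response elements in the regulatory DNA of its targets. In unstressed cells KEAP1 holds it for ubiquitination by a CUL3 ligase, and electrophiles or oxidants that modify KEAP1 let newly made NRF2 reach the nucleus. In liver its targets supply glutathione, reduce thioredoxin and quinones, break down heme and conjugate drugs and reactive metabolites. Much of this control acts on the protein, which RNA counts do not measure.

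The core letters of the antioxidant response element, TGACNNNGC, were searched on both strands of RefSeq promoter windows (GRCm38.p6), each of 300 bases with 250 before and 50 from the start site. Of the 10 genes, 8 were in that table and 5 held the letters in at least 1 window, against 14% of all symbols. By window, 12.4% of all 32851 held them. The matches are shown because they fall in genes that rose (Nfe2l2, Txnrd1) and in genes that did not pass the test (Gclm, Srxn1, Mgst1). Capitals mark the match, each run reads 5′ to 3′ on the strand of the gene, and in all but Nfe2l2 the letters stand in reverse complement.
Nfe2l2, minus strand, chr2:75704885-75704913: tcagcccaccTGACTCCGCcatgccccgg
Txnrd1, plus strand, chr10:82859104-82859132: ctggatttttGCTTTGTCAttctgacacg
Gclm, plus strand, chr3:122245413-122245441: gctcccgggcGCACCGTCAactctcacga
Srxn1, plus strand, chr2:152105542-152105570: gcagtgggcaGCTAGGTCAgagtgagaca
Mgst1, plus strand, chr6:138140461-138140489: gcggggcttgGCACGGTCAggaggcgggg
The match began 240 bases upstream of the listed start in Nfe2l2, 134 in Gclm, 92 in Txnrd1 (at 1 of 3 listed starts) and 56 in Mgst1 (at 1 of 2), and lay 28 bases past the start in Srxn1. The windows of Keap1, Nqo1 and Ephx1 did not hold these letters, and Gclc and Hmox1 had no entry. Sequence outside the windows was not searched. The only Ephx1 window (181017520 to 181017819) lies within the gene, whose GENCODE M21 model begins at 181020904 on the minus strand. A match of letters is a description of the sequence and no measurement of binding.

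Reads counted in genes ranged from 1495583 to 2872421 per library, or 4.22% to 6.69% of all counted reads, so the depth was low. KO3 was highest in both, and KO2 had the next most reads in genes, 1754269. KO3 also had the highest CPM of Nfe2l2, Ephx1, Txnrd1, Srxn1 and Hmox1, and of no other member. Almost all other reads lay in no gene (93.3% to 95.8%), and the strand setting of the counting is not known. Its effect on the levels was not tested. Levels are given as CPM, that is per 1e6 reads of the tested genes after TMM scaling. Where no read was seen, up to 3 counts remain possible from counting error alone, and these stood for 1.04 to 2.10 CPM. Trim24 had 31, 45 and 44 counts in WT1 to WT3 and 3, 2 and 2 in KO1 to KO3. All 12 listed hepatocyte markers were detected in every library, and their sum was lower in each knockout library (107360 to 142130 CPM) than in each wild type library (152770 to 159810 CPM). Of these 12, 11 had a negative fitted change and 1 fell, Cyp2e1, from 6708 ± 176 CPM to 2955 ± 974 CPM (edgeR adjusted p = 0.0040). KO1 and KO3 carried pancreatic acinar transcripts, with 22 marker genes summing to 1075 and 700 CPM, against 15.2 CPM in KO2 and 12.5 to 39.8 CPM in wild type. Results were therefore also computed with KO2 as the only knockout library, a choice made after seeing the data that assumes KO2 varies like the wild type libraries. Kupffer cell and macrophage markers, 20 in number, summed to 302 to 530 CPM in wild type and 474 to 865 CPM in knockout. These sums overlapped, but 16 of 17 tested markers had a positive fitted change, against 50.8% of all tested genes. An unadjusted edgeR p under 0.05 was reached by 12 of the 17, against 20.3% of all tested genes. In 6 every knockout library lay above every wild type library, against 12.4% of all tested genes. Stellate cell markers summed to 490 to 532 CPM in wild type and 652 to 759 CPM in knockout. All 8 tested had a positive fitted change, and 2 rose, against 3.08% of all tested genes. These were Col1a2 and Dcn (log2 fold changes 1.46 and 0.66), calls that ended in 3 and 5 of 15 alternatives. Endothelial markers summed to 584 to 618 and 449 to 603 CPM. Of 12 tested, Tek was higher and Stab2 was among 2 lower (log2 fold changes 1.68 and -0.91, the latter not called in 2 alternatives). Over all tested genes 3.08% were called higher and 2.65% lower. Bile duct markers summed to 40.4 to 60.1 and 51.4 to 76.5 CPM. KO2 had little acinar signal, but its hepatocyte and endothelial sums were the lowest of all libraries. Its Kupffer cell, stellate cell and bile duct sums were the highest, so KO2 alone is not free of these shifts. In bulk liver a different number of cells of a type and a different amount of RNA per cell cannot be told apart, and the part of these shifts in the results below was not tested.

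Across the 10 genes, Nfe2l2, Ephx1 and Txnrd1 rose in the knockout and none fell (edgeR quasi-likelihood test, Benjamini-Hochberg adjusted p under 0.05 over 9180 genes). Among all tested genes 5.73% were called, 3.08% as higher and 2.65% as lower. Nqo1 passed the filter through its knockout counts alone and is left out of the following tallies. An unadjusted p under 0.05 was reached by 7 of the other 9 genes and by 20.3% of all tested genes. In 4 genes (Nfe2l2, Ephx1, Txnrd1, Srxn1) every knockout library lay above every wild type library, as in 12.4% of all tested genes. In Mgst1 every knockout library lay below, as in 12.6%. Groups without overlap in either direction made up 25.0% of the genes tested. The fitted log2 fold change was positive for 6 genes and negative for Gclc, Gclm and Mgst1. Its median was 0.56 over the 9 genes and 0.01 over all tested genes.

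**Figure D1:**
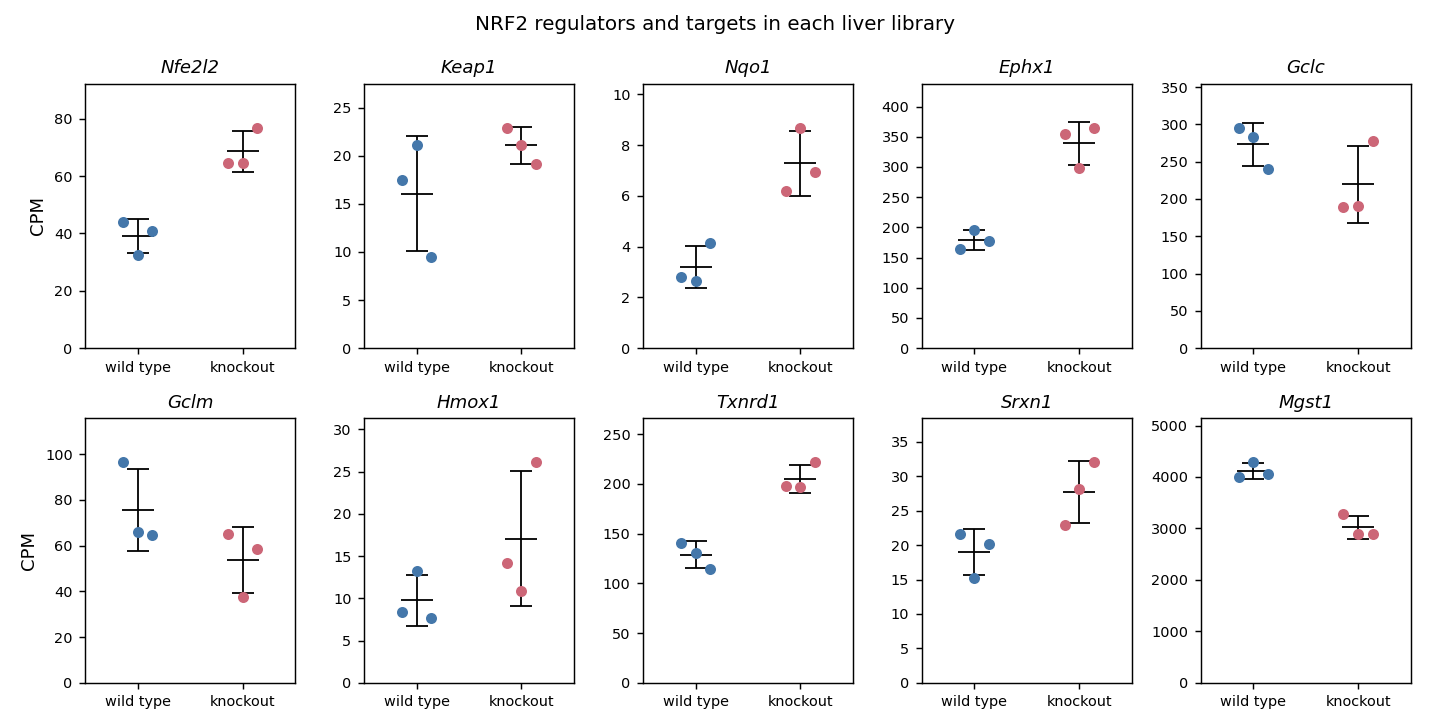
CPM of each gene in the 3 wild type (blue) and 3 knockout (red) liver libraries, each panel with its own linear axis from 0. Horizontal lines give the mean and whiskers the SD (n = 3). The groups are apart in the panels of Nfe2l2, Nqo1, Ephx1, Txnrd1 and Srxn1 (knockout higher) and of Mgst1 (knockout lower), and overlap in the other 4.

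The regulators come first. Nfe2l2, on chromosome 2 (75675513 to 75704641, minus strand, GRCm38), had 63, 49 and 69 counts in WT1 to WT3 and 104, 119 and 221 in KO1 to KO3. In CPM these were 44.0, 32.4 and 41.0 in wild type and 64.4, 64.6 and 76.9 in knockout. The lowest knockout library lay well above the highest wild type one, WT1. The mean rose 1.76-fold, from 39.1 ± 6.0 to 68.6 ± 7.2 CPM (SD, n = 3; log2 fold change 0.82, SE 0.18, edgeR adjusted p = 0.016). The call ended without WT2, WT3 or KO3 (adjusted p = 0.085, 0.070 and 0.051) and with KO2 as the only knockout library (0.10), while the log2 fold change stayed between 0.69 and 0.91 in every alternative.

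Keap1, the adaptor that marks NRF2 for degradation, lies on chromosome 9 (21229730 to 21239361, minus strand). It had 25, 32 and 16 counts in WT1 to WT3 and 37, 39 and 55 in KO1 to KO3. The means were 16.0 ± 6.0 and 21.1 ± 1.9 CPM, and WT2 at 21.2 CPM stood above KO3 at 19.1 CPM. The log2 fold change was 0.39 (SE 0.28, edgeR adjusted p = 0.47), and it was 0.11 without WT3, the lowest library. An antisense gene without a row in the files overlaps Keap1 exons, and reads of the pair cannot be told apart where strand is not counted.

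The RNA of other listed regulators around NRF2 showed no called change where it was tested. Of 16 listed regulators 13 were tested and 0 were called by edgeR, against 5.73% of all tested genes. An unadjusted edgeR p under 0.05 was reached by 1 of them, against 20.3% of all tested genes. The median log2 fold change of the 13 was 0.03, with 7 positive and 6 negative. Cul3, the scaffold of the KEAP1 ligase, had a mean of 92.9 ± 17.5 CPM in wild type and of 95.2 ± 17.6 CPM in knockout. Sqstm1, whose product p62 binds KEAP1, had 239 ± 47 and 218 ± 14 CPM. Bach1, a repressor at the same DNA elements, had 50.1 ± 7.6 and 54.1 ± 3.5 CPM. The smallest p of the list belonged to Trim21, a ubiquitin ligase that is also induced by interferon, with 12, 10 and 15 counts in wild type and 27, 25 and 43 in knockout (log2 fold change 0.91, SE 0.28, edgeR adjusted p = 0.081). Bach2 had the next smallest p, at 15.5 ± 1.4 and 11.6 ± 3.5 CPM (edgeR adjusted p = 0.47).

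Among the thioredoxin genes, Txnrd1 encodes the cytosolic thioredoxin reductase, a selenoprotein that passes electrons from NADPH to thioredoxin. It lies on chromosome 10 (82833951 to 82897712, plus strand). Its counts were 202, 198 and 193 in WT1 to WT3 and 320, 362 and 637 in KO1 to KO3. In CPM the wild type libraries held 141, 131 and 115 and the knockout libraries 198, 196 and 222, and no knockout library came near the wild type range. The mean rose 1.60-fold, from 129 ± 13 to 205 ± 14 CPM (log2 fold change 0.67, SE 0.15, edgeR adjusted p = 0.019). As for Nfe2l2, the call ended without WT2, WT3 or KO3 (adjusted p = 0.072, 0.12 and 0.055) and with KO2 alone (0.10), at a log2 fold change of 0.59 to 0.77 over all alternatives.

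Srxn1, whose product sulfiredoxin repairs overoxidized peroxiredoxins, lies on chromosome 2 (152105516 to 152111376, plus strand). It had 31, 23 and 34 counts in WT1 to WT3 and 37, 52 and 92 in KO1 to KO3. In CPM the wild type libraries held 21.7, 15.2 and 20.2 and the knockout libraries 22.9, 28.2 and 32.0. The groups did not overlap, but the gap between WT1 and KO1 was narrow. The log2 fold change was 0.56 (SE 0.23, edgeR adjusted p = 0.19), and no alternative took it past the threshold.

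The remaining thioredoxin, peroxiredoxin, catalase and superoxide dismutase genes, listed together with Txnip and the sestrin genes, held a single call. Of 18 listed genes 17 were tested, 1 rose and none fell, against 3.08% and 2.65% of all tested genes. The 17 had 4 positive and 13 negative fitted changes, with a median log2 fold change of -0.11. In 4 of them every knockout library lay below every wild type library, and in 1 above, as in 12.6% and 12.4% of all tested genes. Prdx1, a peroxiredoxin known as an NRF2 target, had 1295 ± 158 and 1270 ± 54 CPM in the wild type and knockout groups. Thioredoxin itself (Txn1) had 228 ± 22 and 201 ± 43 CPM, and the catalase gene Cat had 2133 ± 282 and 1482 ± 285 CPM (edgeR adjusted p = 0.098). The sestrin gene Sesn1, named after its values were seen, had 17.2 ± 2.6 and 8.94 ± 2.14 CPM (log2 fold change -0.95, SE 0.28, edgeR adjusted p = 0.066). The gene that rose was Sod3, the extracellular superoxide dismutase, with 39, 51 and 63 counts in wild type and 89, 153 and 172 in knockout. Its mean went from 32.8 ± 5.1 to 66.0 ± 14.9 CPM (log2 fold change 1.0, SE 0.20, edgeR adjusted p = 0.012). That call ended without WT1 (adjusted p = 0.063) or KO2 (0.0501).

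The 2 genes of glutathione synthesis among the 10 had negative fitted changes that did not pass the test. Gclc encodes the catalytic subunit and Gclm the modifier subunit of glutamate-cysteine ligase, which carries out the rate-limiting step. Gclc, on chromosome 9 (77754535 to 77794485, plus strand), had 423, 428 and 405 counts in WT1 to WT3 and 305, 352 and 800 in KO1 to KO3. In CPM these were 295, 283 and 241 against 189, 191 and 278. KO1 and KO2 lay below every wild type library, whereas KO3 lay between WT3 and WT2. The log2 fold change was -0.31 (SE 0.18, edgeR adjusted p = 0.36), and without KO3 it was -0.52 (adjusted p = 0.11).

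Gclm, on chromosome 3 (122245557 to 122270732, plus strand), had 138, 100 and 109 counts in WT1 to WT3 and 105, 69 and 168 in KO1 to KO3. In CPM these were 96.4, 66.1 and 64.7 against 65.0, 37.4 and 58.4. The groups met at KO1 and WT3, with KO2 the lowest library and WT1 the highest. The log2 fold change was -0.49 (SE 0.22, edgeR adjusted p = 0.23). With KO2 as the only knockout library it was -1.01 (adjusted p = 0.048), and without KO2 it was -0.29. Exons of Gclm overlap genes on both strands that have no row in the files.

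The other listed glutathione genes covered synthesis, reduction, peroxidases, breakdown and cystine uptake. Of these 14 genes 7 were tested, 1 rose and none fell, against 3.08% and 2.65% of all tested genes. The median log2 fold change of the 7 was -0.08. The genes for glutathione reductase (Gsr) and glutathione peroxidase 1 (Gpx1) had 62.2 ± 9.7 and 63.0 ± 6.6 CPM, and 1265 ± 109 and 1197 ± 285 CPM, in wild type and knockout. The gene that rose was Gss, glutathione synthetase, the enzyme of the second step, from 35.1 ± 6.2 to 58.4 ± 3.0 CPM (log2 fold change 0.73, SE 0.18, edgeR adjusted p = 0.032). Its counts were 44, 49 and 71 in wild type and 100, 105 and 162 in knockout. The call ended without WT1, WT2, KO1, KO2 or KO3 (adjusted p up to 0.13), with KO2 as the only knockout library (0.14) and with DESeq2 (0.058). Gss shares exon sequence with Acss2 on the opposite strand, and reads in that stretch cannot be assigned without strand.

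Of the 3 detoxification enzymes among the 10, Ephx1 rose, and Nqo1 and Mgst1 were not called. Ephx1, the microsomal epoxide hydrolase, lies on chromosome 1 (180976210 to 181020904, minus strand). It had 234, 296 and 298 counts in WT1 to WT3 and 572, 549 and 1049 in KO1 to KO3. In CPM the wild type libraries held 163, 196 and 177 and the knockout libraries 354, 298 and 365. The lowest knockout library, KO2, was still far above the highest wild type library, WT2. The mean rose 1.90-fold, from 179 ± 16 to 339 ± 36 CPM (log2 fold change 0.92, SE 0.16, edgeR adjusted p = 0.0035). A pseudogene without a row in the files shares 72 exon bases with it. Ephx1 passed the threshold in all 15 alternatives, with a log2 fold change of 0.73 to 1.01 and an adjusted p of at most 0.045, the value with KO2 as the only knockout library.

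Nqo1, the quinone reductase often used as a readout of NRF2, lies on chromosome 8 (107388225 to 107403206, minus strand) and was the scarcest of the 10. It had 4, 4 and 7 counts in WT1 to WT3 and 10, 16 and 20 in KO1 to KO3, or 2.79, 2.65 and 4.16 CPM against 6.19, 8.68 and 6.96 CPM. It reached the expression filter in 3 knockout libraries and in 0 wild type libraries, so it was tested because of its knockout counts, and the separation of its groups supports nothing further. The log2 fold change was 1.15 (SE 0.40, edgeR adjusted p = 0.12). With 15 and 46 counts over the groups, this change was not called in any of the 15 alternatives either.

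Mgst1 encodes a microsomal glutathione transferase that is abundant in liver. It lies on chromosome 6 (138140316 to 138156755, plus strand), as does Trim24 (37870811 to 37966296). Its counts were 5722, 6475 and 6844 in WT1 to WT3 and 5284, 5321 and 8337 in KO1 to KO3. In CPM these were 3997, 4282 and 4064 in wild type and 3272, 2888 and 2900 in knockout, with a clear gap between KO1 and WT1. The knockout mean of 3020 ± 218 CPM was 1.36-fold lower than the wild type mean of 4114 ± 149 CPM, at a log2 fold change of -0.45 (SE 0.14, edgeR adjusted p = 0.088). With DESeq2 the value was -0.45 and passed the threshold (adjusted p = 0.037), which no other alternative did.

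Hmox1, heme oxygenase 1, releases iron and biliverdin from heme and is expressed in hepatic macrophages as well as in stressed hepatocytes. It lies on chromosome 8 (75093621 to 75100589, plus strand). It had 12, 20 and 13 counts in WT1 to WT3 and 23, 20 and 75 in KO1 to KO3, or 8.38, 13.2 and 7.72 CPM against 14.2, 10.9 and 26.1 CPM. KO3 alone stood out, and WT2 lay above KO2. The log2 fold change was 0.86 (SE 0.36, edgeR adjusted p = 0.20), 0.35 without KO3 and 0.15 with KO2 as the only knockout library. The summed Kupffer cell markers were 302, 530 and 425 CPM in WT1 to WT3 and 474, 865 and 855 CPM in KO1 to KO3. Of 17 tested markers (median log2 fold change 0.83) 3 rose, against 3.08% of all tested genes. Among these 3 were C1qc (10.6 ± 4.6 to 27.2 ± 6.5 CPM) and Mpeg1 (32.9 ± 9.8 to 84.3 ± 41.0 CPM). The call of C1qc ended without WT1, WT3 or KO3 and that of Mpeg1 without WT1, WT3 or KO2 (adjusted p up to 0.11). No marker of that list was at 0 in a whole group. Their part in the Hmox1 values was not tested.

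Heme and iron genes around Hmox1 were not called. Of 11 listed genes 10 were tested, with 0 calls by edgeR, against 5.73% of all tested genes. Of the 10, 2 had an unadjusted edgeR p under 0.05, against 20.3% of all tested genes. The median log2 fold change of the 10 was -0.08. The ferritin genes Fth1 and Ftl1 had 397 ± 58 and 449 ± 17 CPM, and 1344 ± 67 and 1234 ± 172 CPM, in wild type and knockout. The constitutive heme oxygenase gene Hmox2 had 59.2 ± 6.6 and 47.0 ± 3.8 CPM. The smallest p belonged to haptoglobin (Hp), an acute-phase protein that binds free hemoglobin, with 1722 ± 537 and 2787 ± 350 CPM (log2 fold change 0.69, SE 0.20, edgeR adjusted p = 0.063). Hp passed in 7 of 15 alternatives. Hemopexin (Hpx), which binds free heme, had 2004 ± 533 and 3018 ± 900 CPM (edgeR adjusted p = 0.16) and passed in 4.

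**Figure D2:**
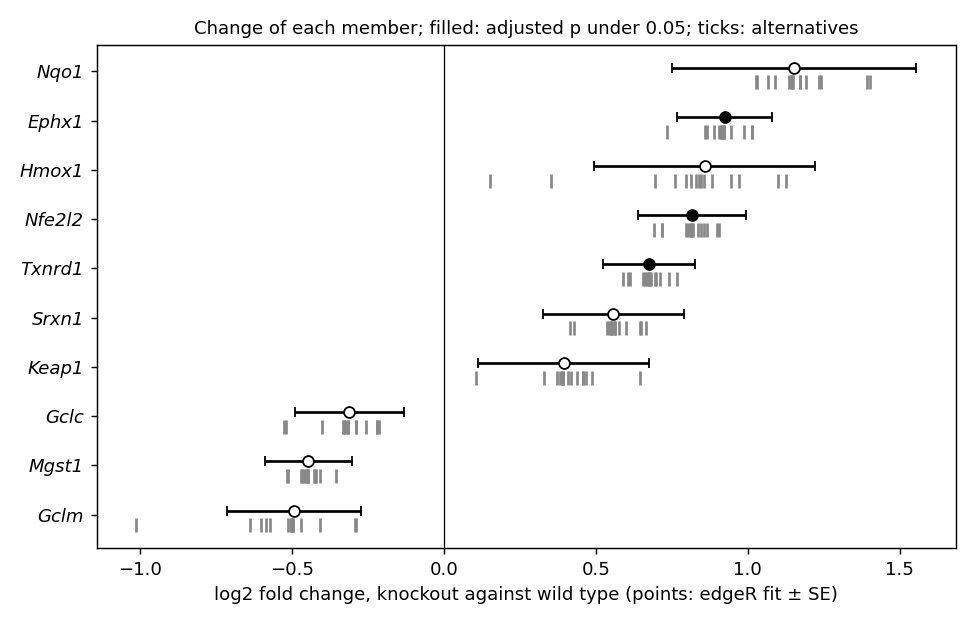
Log2 fold change, knockout against wild type, of the 10 genes with its SE from the edgeR fit (circles, filled where the adjusted p was under 0.05), and the values in 15 alternatives (grey ticks). Filled circles mark Ephx1, Nfe2l2 and Txnrd1; no tick crosses 0, and those of Hmox1 reach from 0.15 to 1.13.

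Ratios of counts within a library do not depend on how libraries are scaled, and they show how far the genes parted. Txnrd1 reads stood to Gclc reads at 0.478, 0.463 and 0.477 in WT1 to WT3 and at 1.05, 1.03 and 0.796 in KO1 to KO3. Txnrd1 over Gclm was 1.46, 1.98 and 1.77 in wild type and 3.05, 5.25 and 3.79 in knockout. Ephx1 over Mgst1, at 0.0434 ± 0.0024 in wild type and 0.112 ± 0.012 in knockout, was likewise higher in each knockout library than in each wild type one. The pairs were chosen after the values of these genes were seen, so no test is given. Nfe2l2 over Keap1 overlapped between the groups, at 2.79 ± 1.41 and 3.29 ± 0.64, and so did Gclc over Gclm, at 3.69 ± 0.61 and 4.26 ± 1.18.

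**Figure D3:**
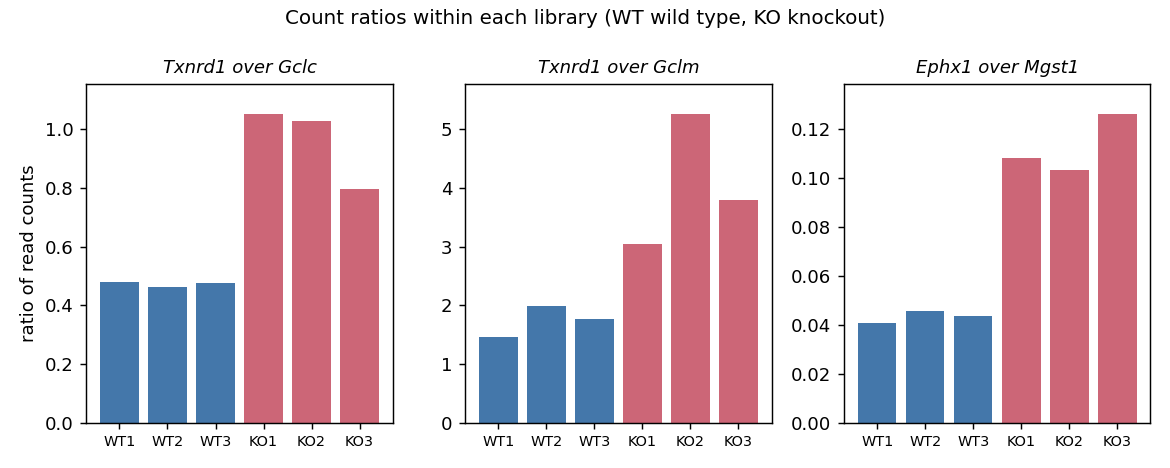
Ratio of read counts of 2 genes in each library, wild type in blue and knockout in red, on linear axes from 0 that differ between panels. Txnrd1 over Gclc lies between 0.463 and 0.478 in wild type and between 0.796 and 1.05 in knockout, and the other 2 ratios separate the groups as well.

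Per kilobase of merged exon (GENCODE M21, GRCm38, whereas the notes of the submitters name mm9), the 10 genes spanned a wide range of levels. In wild type Mgst1 led at 2044 CPM per kb, followed by Ephx1 at 91.7, Gclc at 72.5, Txnrd1 at 18.2 and Gclm at 12.0. Nfe2l2 followed at 10.3, Srxn1 at 6.74, Hmox1 at 5.58, Keap1 at 3.42 and Nqo1 at 2.06 CPM per kb. The libraries of neighbours in this order overlapped for Gclm and Nfe2l2, Srxn1 and Hmox1, Hmox1 and Keap1, and Keap1 and Nqo1, and were apart for the others. In knockout the first 4 kept their places, Nfe2l2 (18.1 CPM per kb) lay apart from Gclm (8.53), and Gclm overlapped Hmox1 (9.74).

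Detoxification genes outside the 10 held calls in both directions. Of 40 listed genes 28 were tested, with a median log2 fold change of -0.04. Of these, 2 rose and 5 fell, against 3.08% and 2.65% of all tested genes. The fitted change was positive for 12 of the 28 and negative for 16. An unadjusted edgeR p under 0.05 was reached by 13 of the 28, against 20.3% of all tested genes. Abcc3, a basolateral exporter of conjugated bile acids and drugs, fell from 358 ± 52 to 105 ± 30 CPM. It had 433, 614 and 615 counts in wild type and 193, 129 and 359 in knockout, and the log2 fold change was -1.77 (SE 0.21, edgeR adjusted p = 0.00034). The glutathione transferase gene Gstm6 fell to 203 ± 37 CPM from 368 ± 9 CPM in wild type (log2 fold change -0.85, SE 0.16, edgeR adjusted p = 0.0080). Its relative Gstm3 rose from 67.7 ± 3.2 to 122 ± 23 CPM (0.85, SE 0.17, edgeR adjusted p = 0.0095), a call that ended with KO2 as the only knockout library (0.084).

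Gstp2, a pi-class transferase gene, had 12, 15 and 23 counts in wild type and 75, 72 and 198 in knockout. It rose to 51.5 ± 15.5 CPM, with 10.7 ± 2.7 CPM in wild type (log2 fold change 2.27, SE 0.28, edgeR adjusted p = 0.00041). Gstp2 is a close copy of Gstp1, which had 1066 ± 50 and 1414 ± 307 CPM (edgeR adjusted p = 0.21), and the Gstm genes are also similar to each other, so how reads were split within these families is uncertain. The other 3 genes that fell, named after their values were seen, were the quinone reductase relative Nqo2 (166 ± 12 to 109 ± 8 CPM), the carboxylesterase gene Ces1g (145 ± 11 to 87.1 ± 26.5 CPM) and the fatty aldehyde dehydrogenase gene Aldh3a2 (173 ± 18 to 93.9 ± 22.1 CPM). The call of Nqo2 ended whichever single library was left out (adjusted p of 0.0501 to 0.099), with KO2 alone and without scaling factors. That of Ces1g ended with each single library left out other than KO1 (0.093 to 0.15) and without scaling factors, and that of Aldh3a2 without WT2 (0.067). Nqo2 overlaps Serpinb6a on the opposite strand. The major transferase genes Gstm1 (1605 ± 205 and 1576 ± 147 CPM) and Gsta3 (734 ± 142 and 611 ± 84 CPM) did not pass. Osgin1, named after its values were seen, had 16.7 ± 9.6 and 35.6 ± 6.5 CPM and did not pass either (log2 fold change 1.11, SE 0.34, edgeR adjusted p = 0.075).

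Of 9 listed genes that supply NADPH, 8 were tested, 1 fell and none rose, against 2.65% and 3.08% of all tested genes. The median log2 fold change of the 8 was -0.21. Me1, malic enzyme, fell to 52.0 ± 10.3 CPM from 129 ± 12 CPM in wild type (log2 fold change -1.32, SE 0.17, edgeR adjusted p = 0.00056). Me1 is also a gene of lipid synthesis, and 30 bases of its exons overlap an antisense gene. The pentose phosphate genes G6pdx (12.2 ± 5.6 and 10.5 ± 0.7 CPM), Pgd (16.8 ± 1.0 and 14.2 ± 3.5 CPM) and Taldo1 (62.8 ± 3.7 and 62.9 ± 10.8 CPM) were not called. Over the 6 pathway lists together the median log2 fold change was -0.09. Of 83 tested genes 4 rose and 6 fell, against 3.08% and 2.65% of all tested genes. With no scaling factors the counts were 5 and 4, and over all tested genes 373 were higher and 172 lower, against 283 and 243 with TMM.

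**Figure D4:**
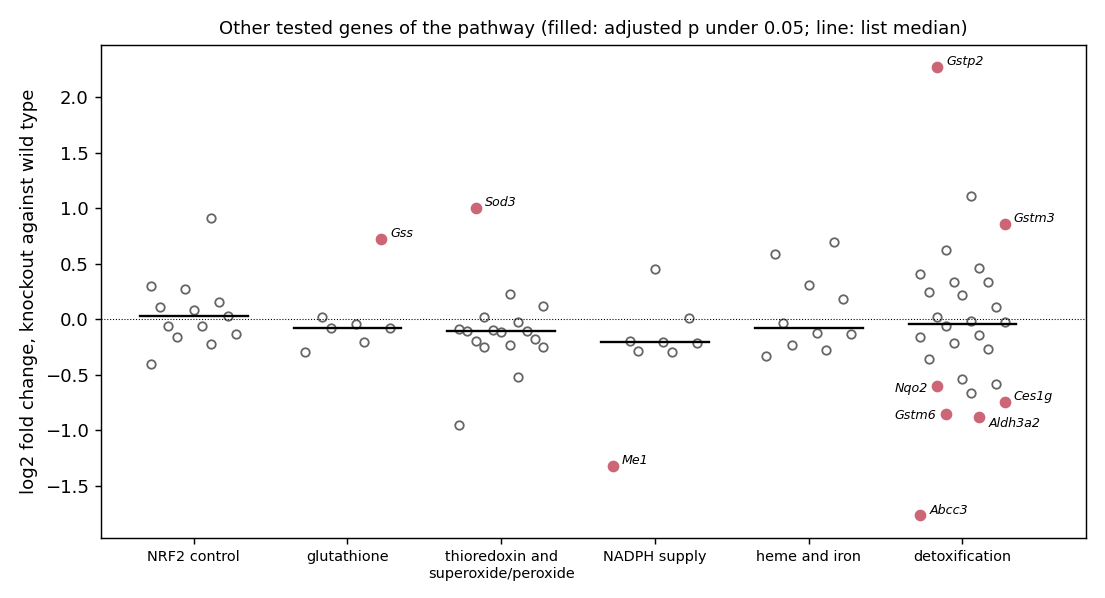
Log2 fold change, knockout against wild type, of the 83 tested genes in the 6 pathway lists; filled points had an adjusted p under 0.05 and the horizontal line is the median of the list. Medians lie between -0.21 and 0.03, and the 10 filled points split into 4 above and 6 below 0.

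For the 3 genes that rose, the genes with the most similar log2 CPM over the 6 libraries were looked up among genes with a mean of at least 20 CPM. They were Nars, Pa2g4 and Xbp1 for Nfe2l2 (Pearson r = 0.996, 0.995 and 0.995), P4ha1, Srp72 and Hsd17b6 for Txnrd1 (0.994, 0.991 and 0.988), and Lima1, Pak1ip1 and Ahsa1 for Ephx1 (0.991, 0.989 and 0.987). The 6 points share their genotype split and their libraries, so any gene that differs between the groups with little spread scores high. These values describe likeness only.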

How the data were processed

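Raw read counts per gene symbol were deposited by the authors for each of the 6 libraries, without normalization. Per the submitters' processing notes, mm9, HTSeq, edgeR and TopHat 1.4.1 were used, with no role stated for each; strand setting and annotation are not given in the sources used here. Reads in no gene (93.3% to 95.8%) and ambiguous reads (0.0130% to 0.0213%) stayed out of library sizes and tests. The counts of all genes were fitted with edgeR 4.0.16 (R 4.3.3): filterByExpr with a minimum count of 10, TMM, quasi-likelihood F test on genotype, and Benjamini-Hochberg adjustment over 9180 genes. SE is the log2 fold change over the square root of F. Alternatives used other scaling factors, DESeq2 1.42.0, limma-voom 3.58.1, other filters, the replicate number as a block, and each library left out with the filter applied anew. On simulated counts for 9180 genes with 200 changed, 13.8%, 69.4% and 98.5% of genes changed 1.5-fold, 2-fold and 4-fold were recovered. Of the 121 calls there, 3.31% were on unchanged genes. In a separate simulation without any changed gene, 0 genes were called. The members and lists were chosen with earlier results of these data known. Named genes were the members, Trim24, up to 4 called genes of each pathway list (or the 2 with the smallest p where none was called) and up to 2 called markers of a list; further pathway genes given with their levels were added for their role. Positions, exon overlaps and the exon lengths behind CPM per kb came from GENCODE M21 (GRCm38), not from the gene models the counts were made with. Tables and figures used Python 3.11.15.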

Additional observations from a re-analysis of the deposited data

How the results depend on the processing

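No member changed its sign in any of the 15 alternatives, and among the other named genes only the acinar marker Cela1 did, at a log2 fold change of -0.12 with KO2 as the only knockout library. The members called higher numbered 3 in every alternative except 1 without WT2, WT3 or KO3 (range 1 to 3 over libraries left out) and 1 with KO2 alone, where Ephx1 remained. Members called lower numbered 1 with DESeq2 (Mgst1) and 1 with KO2 alone (Gclm), and 0 otherwise. Without a filter, 576 genes were higher and 509 lower over all tested genes, and 7 and 10 in the pathway lists. With libraries left out the calls ranged from 127 to 409 higher and 95 to 363 lower over all genes, and from 2 to 5 higher and 3 to 6 lower in the pathway lists. The labels give both groups replicate numbers 1 to 3. The deviations of same-numbered libraries from their group means correlated at r = -0.073, 0.079 and 0.035. Those of libraries with unlike numbers correlated at -0.12 to 0.089. These values cannot show whether same-numbered libraries were handled together, and the labels do not say so. With the replicate block, 3 members were called higher and 0 lower, 295 genes were higher and 250 lower, and 7 pathway genes were higher and 6 lower. The members with the fewest reads were Nqo1, Hmox1, Keap1 and Srxn1, with 15, 45, 73 and 88 counts over the 3 wild type libraries; whether depth or the spread between libraries kept them from being called was not tested.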
